A study of Mus musculus with 8 samples.

Results

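The genes of the actin cytoskeleton and of its transcription factor SRF were compared between the islets of Fzd9 KO mice and those of Fzd9 WT mice. The set was chosen by name with earlier results of these data known, so its counts against all genes are descriptive. It holds 42 genes, namely actins, actin-binding and contractile proteins, ERM proteins, small GTPases, and SRF with its cofactors. Of these, 41 were measured, each on its brightest probe set that the array's annotation gives to 1 gene, out of 22180 genes measured in that way. No probe set in that annotation named Actr2 alone, so Actr2 was not analysed here. Fzd9 KO mice lack Fzd9, a receptor for Wnt ligands, and were compared with Fzd9 WT mice, with 4 mice in each group. Mice of both groups were C57Bl/6 and carried MycER, a Myc protein that tamoxifen switches on, under an insulin promoter, and the survival protein BclXL under the RIP7 insulin promoter, so that both transgenes acted in β-cells. The Fzd9 deletion was not limited to β-cells. All 8 mice were 8 to 12 weeks old and received tamoxifen i.p. for 3 days, so no mouse without active Myc was compared. The sample labels call the tissue insulinoma, while the study describes islets, about 20 to 40 of them pooled per mouse. One array was run per mouse.

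Actin exists as single subunits (G-actin) and as filaments (F-actin) that nucleating, capping, severing, cross-linking and motor proteins build, reshape and pull on. SRF, serum response factor, is a transcription factor that binds a short DNA element called the CArG box in the promoters of actins and of many actin-binding proteins. Its MRTF cofactors are held inactive by G-actin and are released when actin polymerises. The TCF cofactors of the Ets family act together with SRF at early response genes such as Fos and Egr1. In β-cells, F-actin forms a web beneath the plasma membrane through which insulin granules pass on their way to secretion.

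CArG boxes were looked for in the RefSeq promoter windows of the mouse genome (GRCm38.p6), which run 250 bases before to 50 bases after each annotated start site. The box searched was CC, then 6 bases that are each A or T, then GG, a pattern that includes its own reverse complement, so that both strands were covered. It was present in the windows of 7 of the 39 genes of the set that had a window (17.9%), against 1.81% of 27025 genes with a window. The genes of the set include textbook SRF targets, so this share describes the set and is not a result of the arrays. The 7 genes were Srf, Actg1, Vcl, Myl9, Cnn2, Rnd3 and Fhl2. Windows were not at hand for Actb, Actg2 and Tagln. The boxes of Srf and Actg1, whose transcripts were lower in Fzd9 KO islets, are printed below with those of Vcl, Cnn2 and Myl9, whose transcripts did not pass the test, each 5′ to 3′ on the gene's strand with the box in capitals. They lie at chr17:46556190-46556269 for Srf and chr11:120348551-120348610 for Actg1, both on the minus strand, and at chr14:20929148-20929205 for Vcl, chr10:79988519-79988578 for Cnn2 and chr2:156775278-156775337 for Myl9, all on the plus strand.
Srf: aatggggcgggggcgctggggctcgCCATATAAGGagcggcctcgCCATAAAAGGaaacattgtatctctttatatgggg
Actg1: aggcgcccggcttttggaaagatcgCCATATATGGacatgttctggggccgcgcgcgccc
Vcl: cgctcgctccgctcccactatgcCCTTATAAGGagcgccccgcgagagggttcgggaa
Cnn2: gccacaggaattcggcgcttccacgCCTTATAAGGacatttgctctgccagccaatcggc
Myl9: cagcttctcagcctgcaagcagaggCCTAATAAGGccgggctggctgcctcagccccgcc
The Srf window holds 2 boxes, 82 and 62 bases before the start site, and the Actg1 window holds 1 box, 90 bases before it. The start site of the Srf window lies inside the RefSeq span of the gene, which extends further in the 5′ direction. Vcl and Cnn2 carry the same box, at 227 and 56 bases before the start site, and the Myl9 box lies at 161 bases. A box is a match of letters, and no binding was measured.

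Levels were log2 values normalised by RMA, the standard method that corrects background, equalises the arrays and summarises the probes of a set, and differences are given as KO minus WT on the log2 scale. Each probe set has its own response, so levels were compared between mice and not between genes. As a gauge of background, 1405 probe sets of olfactory and vomeronasal receptors, which islets are not known to use, had levels of which 95% lay at or below 3.52. Arrays had medians between 2.90 and 3.17. KO mouse 1 and WT mouse 3 stood somewhat apart, with mean correlations to the other arrays of 0.893 and 0.897, while the others lay between 0.917 and 0.926. Fzd9 itself read 2.68, 2.76, 2.65 and 2.01 in Fzd9 KO mice and 3.44, 1.97, 2.78 and 3.31 in Fzd9 WT mice, below the gauge in all 8, and therefore could not serve as a check of the labels. Endocrine markers averaged between 7.47 and 7.70 in Fzd9 KO mice and between 7.50 and 8.10 in Fzd9 WT mice over 13 genes, so the islets carried their defining transcripts.

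In the set, 6 genes fell in Fzd9 KO islets and none rose. They were the cytoplasmic actins Actb and Actg1, the transcription factor Srf, its cofactor Mrtfa (also called Mkl1), the membrane linker Ezr and the small GTPase Rhob. A gene was counted when limma's unadjusted p was under 0.05 and the change was at least 1.2-fold, the threshold the study states. By that rule 6 of 41 genes (14.6%) were lower in Fzd9 KO mice, against a background of 1.17% of all 22180 genes, and 0 of 41 were higher, against 1.28%. Among genes at or above the receptor gauge, 4 of 33 members were lower, against a background of 1.78%, and 0 were higher, against 0.48%. None of the 41 passed Benjamini-Hochberg adjustment over all 41345 probe sets, where 0 probe sets (0.0%) passed in either direction by limma or by the methods' t-test. At an unadjusted p under 0.05, the same 6 genes were found by both tests. Actb and Srf also stand in the study's own list of changed genes, which was drawn from these same mice, so their direction here is not independent of it. Apart from the arrays, the study stained islets for β-actin protein and reported significantly lower levels without Fzd9. The length of tamoxifen treatment for that stain is not stated in the study. In whole islets, fewer cells of a type and less RNA per cell cannot be told apart.

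**Figure D1:**
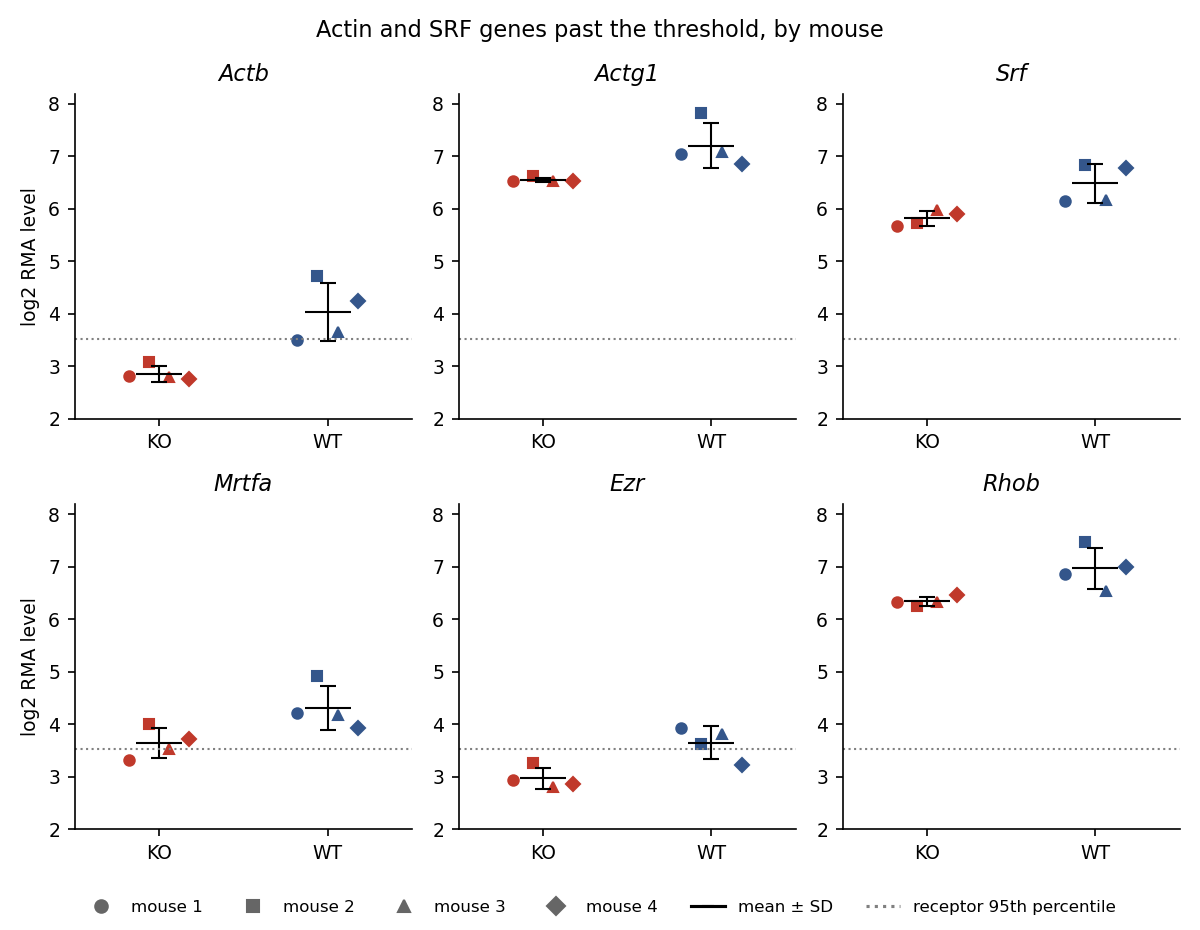
Log2 RMA level (vertical axis) of the 6 genes past the threshold in each mouse, with Fzd9 KO mice on the left and Fzd9 WT mice on the right of each panel. Symbols stand for mice, black bars for the mean and SD (n = 4 each), and the dotted line for the receptor gauge at 3.52. Actb, Actg1, Srf and Rhob show no overlap between groups, while Mrtfa and Ezr overlap by 1 KO and 1 WT mouse.

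Actb, which encodes β-actin, the main cytoplasmic actin of most cells, had the largest difference of the set. It read 2.81, 3.09, 2.79 and 2.76 in Fzd9 KO mice, against 3.51, 4.72, 3.66 and 4.25 in Fzd9 WT mice. The groups did not overlap, and the 4 KO mice were close together, whereas WT mouse 2 and WT mouse 4 lay well above the other WT mice. The means were 2.86 ± 0.15 in Fzd9 KO mice and 4.03 ± 0.56 in Fzd9 WT mice (SD, n = 4 each), a difference of −1.17 (SE 0.28), or 2.25-fold lower in KO. This probe set was the only one named for Actb alone, at chr5:142903115-142907976 by RefSeq gene position, and it was dim: no KO mouse and 3 of 4 WT mice lay above the gauge. A dim probe set compresses a difference, and its size was therefore not taken as a measure of β-actin mRNA in the cell.

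Actg1, which encodes γ-actin, the other cytoplasmic actin (chr11:120345687-120348495), read 6.54, 6.62, 6.54 and 6.53 in Fzd9 KO mice, against 7.05, 7.82, 7.09 and 6.85 in Fzd9 WT mice. Every KO mouse lay below every WT mouse, the KO mice lay close together, and WT mouse 2 was again the highest. Mean levels were 6.56 ± 0.04 in Fzd9 KO mice and 7.20 ± 0.43 in Fzd9 WT mice (SD, n = 4 each), a difference of −0.64 (SE 0.23), or 1.56-fold lower in KO. Without WT mouse 2 the difference was −0.44 and no longer passed the test.

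Actg1 was carried by 6 probe sets of its own. A pair of them, the brightest included, held identical values in all 8 mice and were treated as 1 measurement. A second bright set read 6.12 ± 0.05 in Fzd9 KO mice and 7.07 ± 0.66 in Fzd9 WT mice (SD, n = 4 each), a difference of −0.95 (SE 0.31) with no overlap. A dimmer set read 3.31 ± 0.21 in Fzd9 KO mice and 4.21 ± 0.43 in Fzd9 WT mice, a difference of −0.89 (SE 0.25), also with no overlap. The remaining sets of Actg1 differed by −0.57 (SE 0.36) and −0.47 (SE 0.29) and did not pass the test. A further set that the annotation shares between Actg1 and Gm12739 differed by 0.20 (SE 0.19). With the identical pair counted once, the 5 measurements of Actg1 alone were all lower in the KO mean, and 3 of them passed the threshold. The mouse genome holds many sequences related to the actin genes, and how far each set reads them was not tested.

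**Figure D2:**
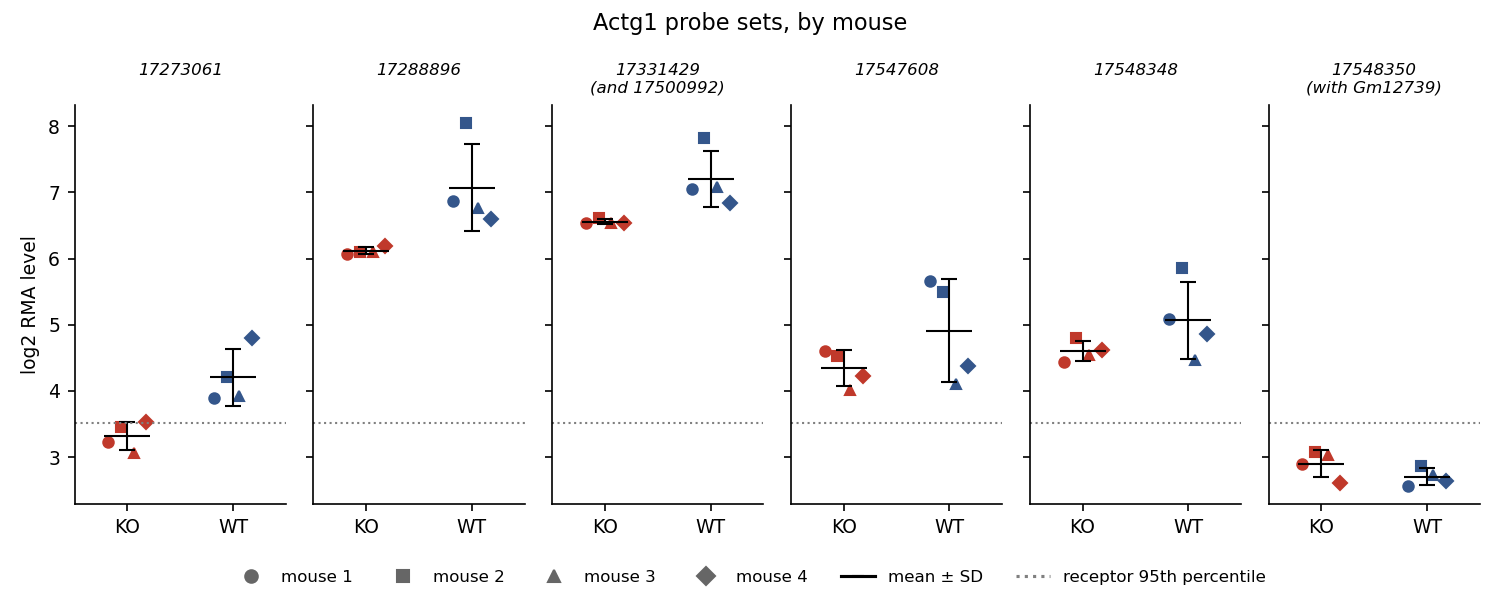
Log2 RMA level of each Actg1 probe set by mouse, with Fzd9 KO points left of Fzd9 WT points, black bars for the mean and SD (n = 4 each) and a dotted line for the receptor gauge. The brightest set separates 4 KO mice near 6.5 from 4 WT mice at 6.85 or above, and a second bright set separates them by 0.95 in the mean.

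The muscle actins did not pass the test. Acta2, smooth muscle α-actin, read 4.97, 5.99, 5.66 and 5.40 in Fzd9 KO mice, against 6.02, 6.40, 5.54 and 5.04 in Fzd9 WT mice, a difference of −0.25 (SE 0.33). Actg2, enteric smooth muscle actin, read 3.02, 2.50, 2.75 and 1.95 in Fzd9 KO mice, against 2.43, 3.80, 3.24 and 2.51 in Fzd9 WT mice, a difference of −0.44 (SE 0.35). Both groups overlapped widely in each gene, and Actg2 averaged below the gauge.

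Srf was lower in every KO mouse than in any WT mouse. Its levels were 5.67, 5.74, 5.99 and 5.90 in Fzd9 KO mice, against 6.15, 6.83, 6.17 and 6.79 in Fzd9 WT mice. The WT mice fell into a higher pair, mice 2 and 4, and a lower pair, mice 1 and 3, which lay just above the highest KO mouse. The means were 5.83 ± 0.14 in Fzd9 KO mice and 6.49 ± 0.37 in Fzd9 WT mice (SD, n = 4 each), a difference of −0.66 (SE 0.23), or 1.58-fold lower in KO. The gene lies at chr17:46546838-46558267, carries the pair of boxes shown above, and passed the threshold in all 20 other settings tried. It passed only narrowly without WT mouse 2 (limma's unadjusted p = 0.04997) and without WT mouse 4 (limma's unadjusted p = 0.04969).

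Mrtfa, the cofactor that senses G-actin (chr15:81012281-81190736), read 3.32, 4.00, 3.53 and 3.73 in Fzd9 KO mice, against 4.22, 4.92, 4.17 and 3.93 in Fzd9 WT mice. The highest KO mouse lay slightly above the lowest WT mouse, and the values were not far from the gauge, with 7 of 8 mice above it. The means were 3.64 ± 0.29 in Fzd9 KO mice and 4.31 ± 0.42 in Fzd9 WT mice (SD, n = 4 each), a difference of −0.67 (SE 0.26), or 1.59-fold lower in KO. The call was the least firm of the 6, since it was lost without KO mouse 1 (−0.56), without KO mouse 3 (−0.63) and without WT mouse 2 (−0.47).

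The related cofactor Mrtfb (Mkl2) read 5.12, 6.10, 5.93 and 5.96 in Fzd9 KO mice, against 6.08, 5.83, 5.65 and 5.62 in Fzd9 WT mice, with a difference of −0.02 (SE 0.25). KO mouse 1 was the lowest of all 8, and the other KO mice lay within or above the WT range. A second probe set of Mrtfb differed by 0.36 (SE 0.24). Fhl2, a LIM-domain protein that is both a target and a partner of SRF, read 5.42, 6.35, 5.14 and 6.13 in Fzd9 KO mice, against 5.28, 5.66, 5.38 and 5.59 in Fzd9 WT mice. Its difference of 0.28 (SE 0.29) was the most positive of the set and did not pass the test.

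Rhob, a small GTPase of endosomes and the plasma membrane whose gene is rapidly induced by growth factors and stress, fell in Fzd9 KO mice. It read 6.32, 6.25, 6.33 and 6.46 in Fzd9 KO mice, against 6.87, 7.46, 6.54 and 7.0 in Fzd9 WT mice. The groups did not overlap, although WT mouse 3 lay close to KO mouse 4. The means were 6.34 ± 0.09 in Fzd9 KO mice and 6.97 ± 0.38 in Fzd9 WT mice (SD, n = 4 each), a difference of −0.63 (SE 0.22), or 1.54-fold lower in KO. Rhob lies at chr12:8497661-8500009, and without WT mouse 2 its difference was −0.46 and did not pass. Rnd3, a small GTPase that loosens actin stress fibres, had a similar mean difference of −0.61 but a larger error (SE 0.55). It read 2.79, 3.58, 3.25 and 3.52 in Fzd9 KO mice, against 2.97, 5.72, 2.96 and 3.92 in Fzd9 WT mice, so that the difference rested on WT mouse 2 and was 0.00 without it.

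Ezrin, radixin and moesin tie F-actin to membrane proteins at the cell cortex. Ezr (chr17:6738131-6782780) read 2.94, 3.26, 2.80 and 2.86 in Fzd9 KO mice, against 3.93, 3.63, 3.81 and 3.21 in Fzd9 WT mice. KO mouse 2 lay just above WT mouse 4, and the other mice were separated. The means were 2.97 ± 0.21 in Fzd9 KO mice and 3.65 ± 0.31 in Fzd9 WT mice (SD, n = 4 each), a difference of −0.68 (SE 0.22), or 1.60-fold lower in KO. As for Actb, the probe set was dim, above the gauge in no KO mouse and in 3 of 4 WT mice. Ezr was the only gene of the 6 in which WT mouse 2 was not the highest, and its call did not depend on any single mouse.

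The other ERM genes did not pass. Rdx read 6.48, 6.998, 7.15 and 6.98 in Fzd9 KO mice, against 7.27, 7.16, 6.87 and 7.21 in Fzd9 WT mice, a difference of −0.22 (SE 0.21). Msn read 7.11, 6.24, 7.52 and 5.88 in Fzd9 KO mice, against 6.92, 7.20, 6.83 and 6.07 in Fzd9 WT mice, a difference of −0.07 (SE 0.39). In both genes the groups overlapped, and the spread of Msn within the KO mice was larger than that between the groups. A second, dim probe set of Msn differed by 0.50 (SE 0.25).

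**Figure D3:**
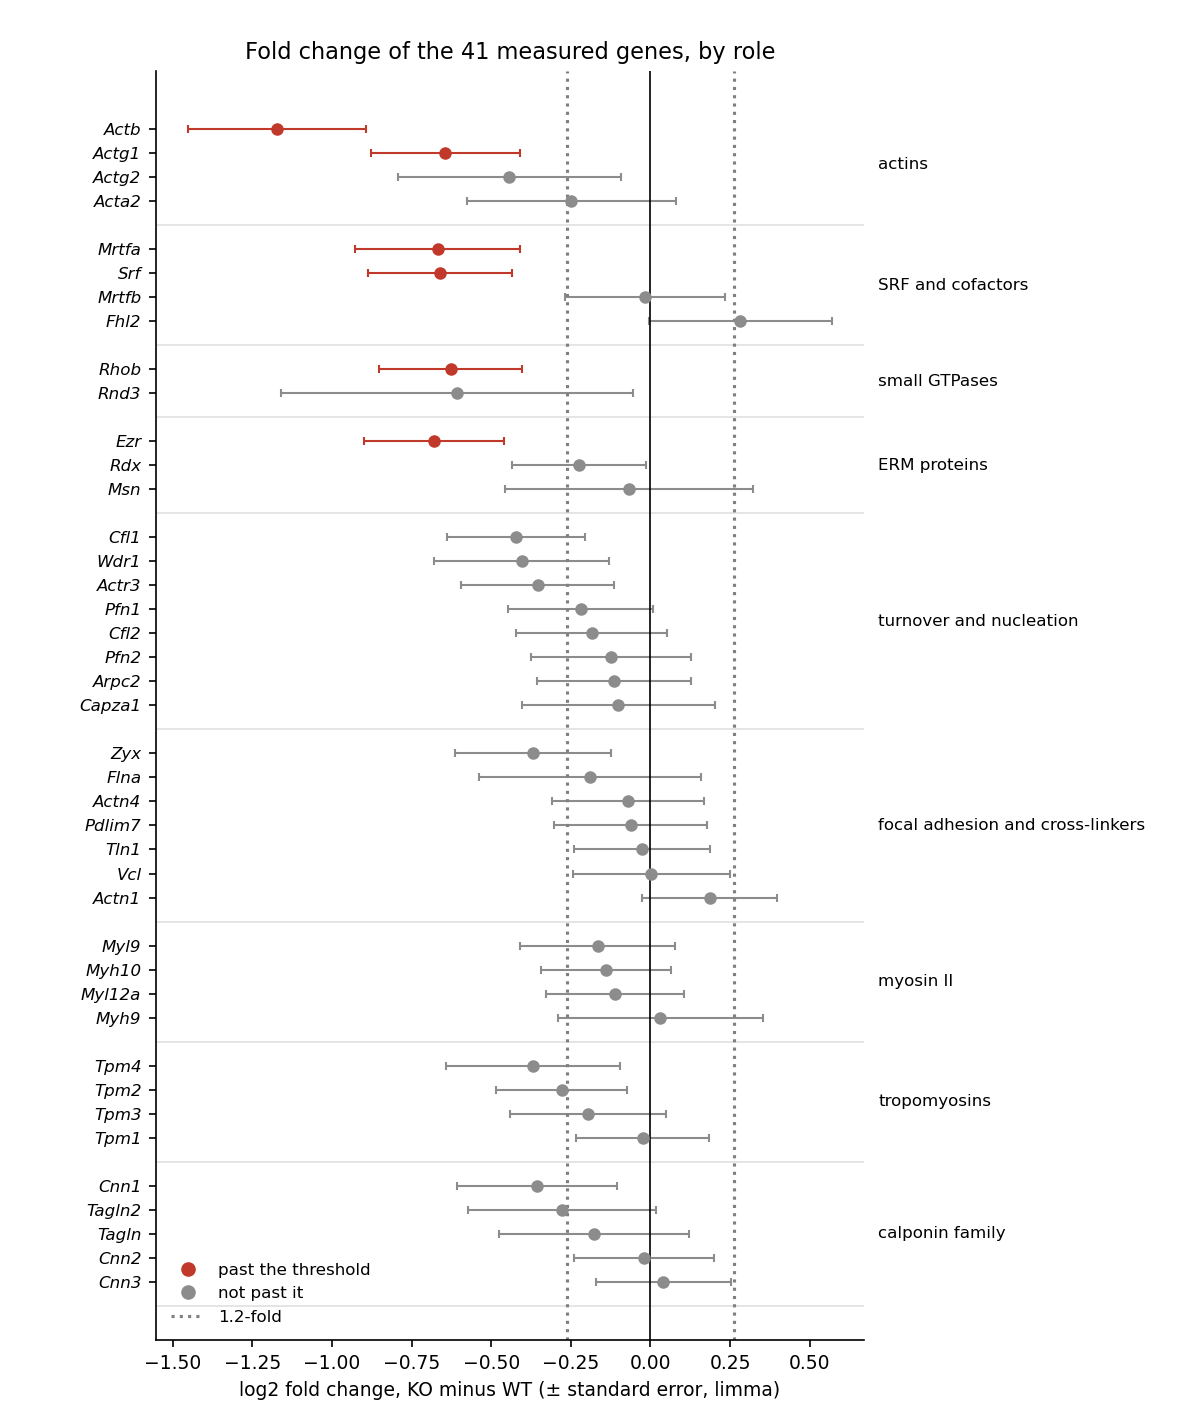
Difference in log2 level, KO minus WT, for each of the 41 measured genes, grouped by role; error bars show the standard error from limma red points mark the 6 genes past the threshold, and dotted lines mark 1.2-fold. Of the 41 points, 36 lie below 0, and the 6 past the threshold are Actb, Actg1, Srf, Mrtfa, Ezr and Rhob.

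The proteins that turn filaments over gave no call. Cfl1, cofilin, which severs filaments, read 6.02, 6.03, 6.16 and 6.10 in Fzd9 KO mice, against 6.84, 6.79, 6.19 and 6.19 in Fzd9 WT mice. The groups did not overlap, but WT mice 3 and 4 lay beside the KO mice, and the difference of −0.42 (SE 0.22) did not pass the test. Wdr1, which helps cofilin disassemble filaments, differed by −0.40, and Actr3, a core subunit of the Arp2/3 complex that nucleates branched filaments, by −0.35. Pfn1 and Pfn2, the profilins that deliver G-actin to growing ends, differed by −0.22 and −0.12. Over the 8 genes of this group, which also holds Cfl2, the capping protein subunit Capza1 and the Arp2/3 subunit Arpc2, differences ran from −0.42 to −0.10 with a median of −0.20.

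The genes of contractile filaments and of focal adhesions gave no call either. The 7 genes of focal adhesions and cross-links, among them vinculin (Vcl), talin (Tln1) and the α-actinins, ran from −0.37 for zyxin (Zyx) to 0.19 for Actn1, with a median of −0.06. Vcl itself differed by 0.00. The 4 myosin II genes, which drive contraction, ran from −0.17 to 0.03, and the 4 tropomyosins, which coat filaments, from −0.37 for Tpm4 to −0.02 for Tpm1. The 5 genes of the calponin family ran from −0.36 for Cnn1 to 0.04 for Cnn3. With all mice, the 28 genes in these 5 groups held none past the threshold, and the 6 that passed lay among the 13 actins, SRF factors, small GTPases and ERM genes. Roles were assigned by hand and this split was not tested.

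The smooth muscle genes among them overlapped widely. Tagln, SM22α, an actin-binding protein of smooth muscle, read 4.85, 5.13, 5.32 and 4.30 in Fzd9 KO mice, against 5.53, 5.39, 4.85 and 4.54 in Fzd9 WT mice, a difference of −0.18 (SE 0.30). Cnn1, calponin, read 3.41, 2.84, 2.73 and 3.39 in Fzd9 KO mice, against 3.08, 3.44, 3.88 and 3.38 in Fzd9 WT mice, a difference of −0.36 (SE 0.25). Myl9, a myosin light chain of smooth muscle, read 4.39, 4.35, 4.96 and 4.94 in Fzd9 KO mice, against 4.70, 5.30, 4.62 and 4.69 in Fzd9 WT mice, a difference of −0.17 (SE 0.24). None of them passed, and no gene of the mural cell list given further on passed either.

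Over the whole set the median difference was −0.19, with a range of −1.17 to 0.28, and 36 of 41 genes (87.8%) were below 0. The median over all 22180 genes was 0.00, and over the 10210 genes at or above the gauge it was −0.06, of which 59.3% were below 0. Endocrine markers leaned the same way, with a median difference of −0.21 and 12 of 13 below 0, and acinar markers the other way, with a median of 0.41 and 2 of 13 below 0, and their part in the lean of the set was not tested. Every KO mouse lay below every WT mouse for 5 genes (Actb, Actg1, Srf, Cfl1 and Rhob), against a background of 1.11% of all genes, and the opposite held for 0 genes, against 1.25%. The mean over the 41 genes nevertheless overlapped between groups, at 5.02, 5.19, 5.20 and 4.98 in Fzd9 KO mice and 5.41, 5.68, 5.12 and 5.18 in Fzd9 WT mice. WT mice 1 and 2 were above all KO mice, while WT mice 3 and 4 lay within the KO range.

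Single mice weighed on these values. WT mouse 2 had the highest level of all 8 mice in 21 of 41 genes and WT mouse 1 in 10. The lowest level was found in KO mouse 1 for 11 genes, in KO mouse 4 for 10 and in WT mouse 3 for 8. The SD was larger among WT mice for 29 of 41 genes, and for all 6 that passed, against 54.1% of all genes. Without WT mouse 2, 3 genes remained past the threshold (Actb, Ezr and, only narrowly, Srf) and the median of the set was −0.09. Without WT mouse 3, 8 genes passed, Cfl1 and Wdr1 in addition to the 6. Without KO mouse 1 and WT mouse 3 together, 8 genes also passed, with Tagln2, Tpm3 and Wdr1 added and Mrtfa lost.

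**Figure D4:**
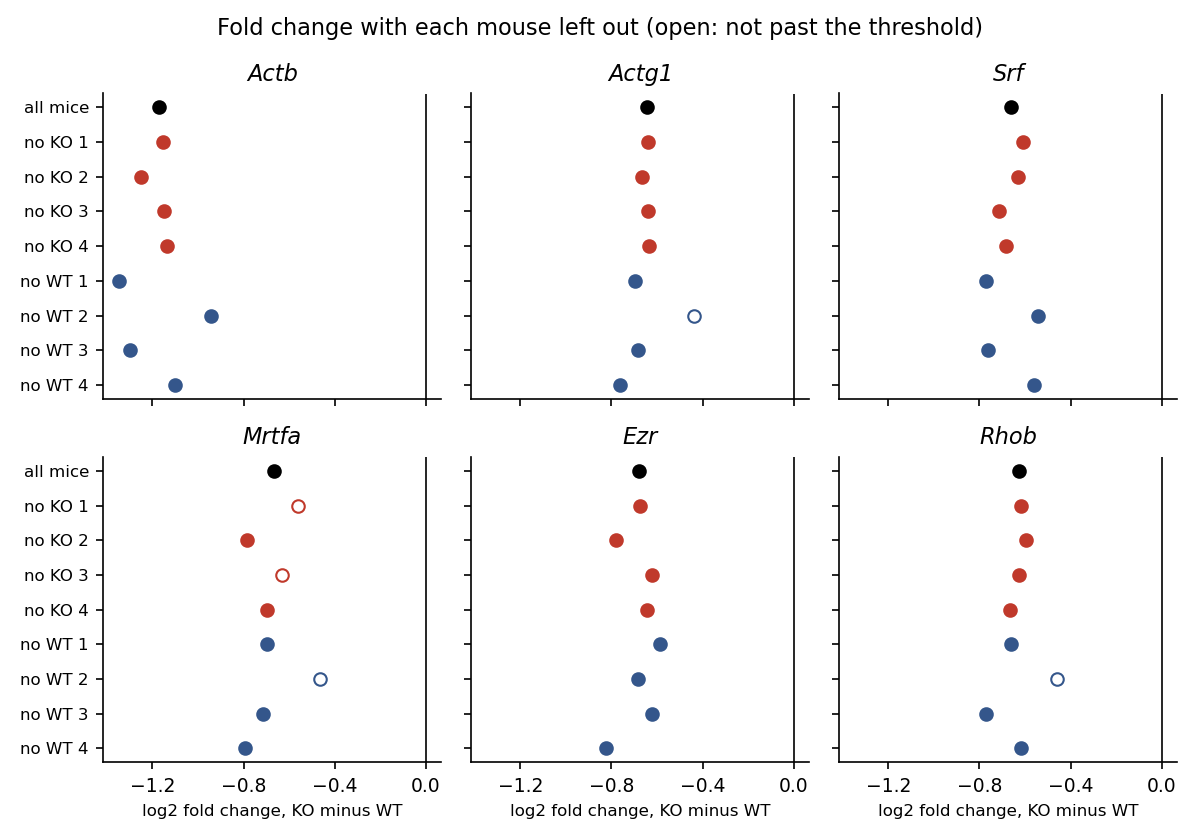
Difference in log2 level, KO minus WT, of the 6 genes past the threshold with all mice and with each mouse left out in turn, KO mice (red) above WT mice (blue); filled points passed the threshold and open points did not. Leaving out WT mouse 2 brings Actb to −0.94, Actg1 to −0.44 and Rhob to −0.46, and the number of genes past the threshold to 3.

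Genes of the same pathways outside the set passed the threshold about as often as all genes did. Of 129 genes for filament nucleation, turnover and bundling, contractility control, adhesion, other MRTF targets and further SRF partners, 2 were lower in Fzd9 KO mice (1.55%, against 1.17% of all genes and 1.78% of genes at or above the gauge) and 0 were higher, with a median difference of −0.06. The count of lower genes is near the background, and the 2 genes are given for their values alone. Measured genes numbered 24 of 29 for nucleation (1 lower, median −0.08), 33 of 34 for turnover and bundling (1 lower, median −0.03) and 23 of 26 for adhesion (0 lower, median −0.11). Brk1, a small subunit of the WAVE complex that activates Arp2/3, read 3.26, 4.48, 4.04 and 4.46 in Fzd9 KO mice, against 5.11, 4.92, 4.56 and 4.42 in Fzd9 WT mice, a difference of −0.69 (SE 0.30). The groups overlapped, and the call held in only 7 of 20 other settings. Ssh1, slingshot, a phosphatase that activates cofilin, read 4.32, 4.14, 4.23 and 4.51 in Fzd9 KO mice, against 4.82, 4.92, 5.37 and 4.52 in Fzd9 WT mice, a difference of −0.60 (SE 0.22). Its groups met without overlapping at KO mouse 4 and WT mouse 4, and the call held in 16 of 20 other settings.

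Further SRF targets were read as separate lists. The 22 other MRTF targets, such as caldesmon and the CCN genes, gave 0 genes past the threshold and a median of −0.11, with a range of −0.59 to 0.34. Of the 16 with a promoter window, 5 (31.2%) carried a CArG box, and any link between boxes and calls was not tested. The 5 further SRF partners (Myocd, Elk1, Elk3, Elk4 and Scai) gave 0 genes past the threshold and a median of 0.13. Of 11 early response targets of SRF and its TCF partners, 8 fell in Fzd9 KO mice. They were Fos, Fosb, Egr1, Egr3, Egr4, Junb, Nr4a1 and Btg2. The background was 1.17% of all genes and 1.78% of genes at or above the gauge. The list was chosen with earlier results of these data known. The study also names early response genes, Junb among them, as most decreased in these same mice. The count therefore describes the list and is not an independent result. By qRT-PCR, the study reported Junb as lower without statistical significance. The median over the 11 was −1.22. List means were 4.82 to 5.03 in Fzd9 KO mice. In Fzd9 WT mice they were 5.51, 7.22, 6.00 and 6.21, with WT mouse 2 the highest. Calls of this list with mice left out are not reported here. The difference between these lists was not tested.

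**Figure D5:**
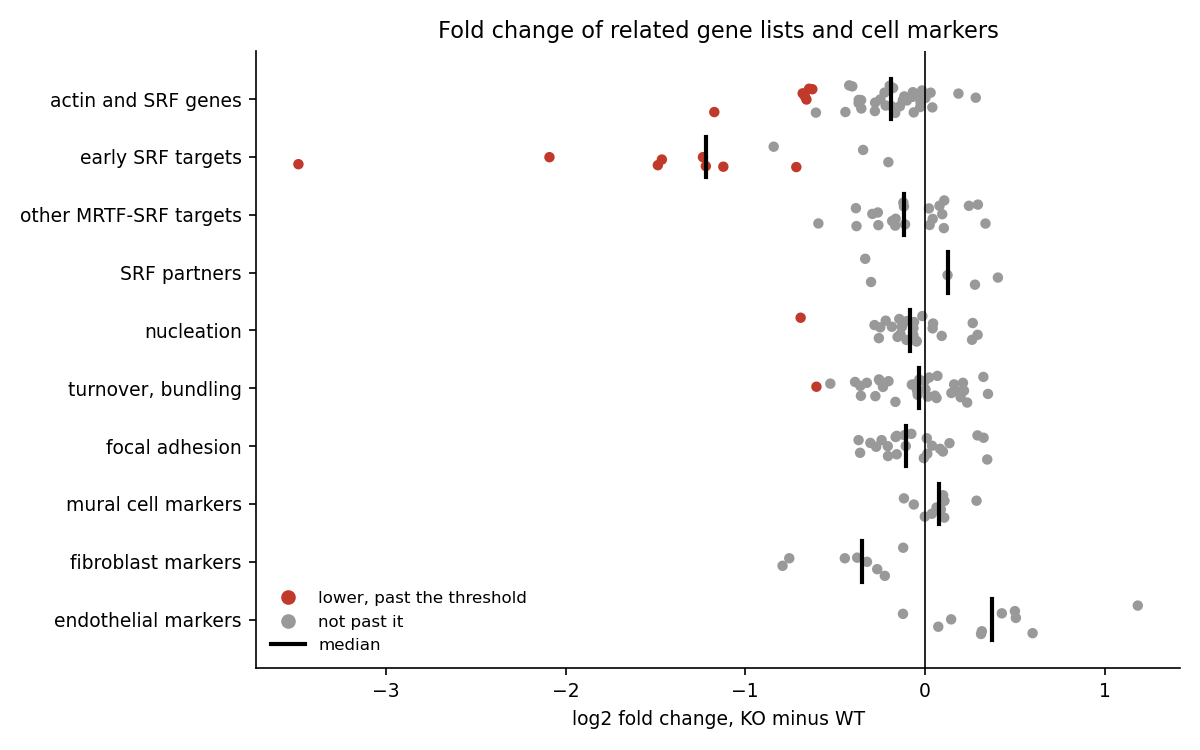
Difference in log2 level, KO minus WT (horizontal axis), of each gene of the set, of 6 related gene lists and of 3 cell marker lists; each point is 1 gene, red points passed the threshold and black bars are list medians. The early SRF targets have a median of −1.22, and the set itself a median of −0.19.

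Markers of other cells were set beside these values, since several genes of the set are abundant in mural cells and fibroblasts. No gene of any of the 7 cell lists passed the threshold. The 10 mural cell genes (pericytes and vascular smooth muscle) averaged 4.43 to 5.45 in Fzd9 KO mice and 4.29 to 5.29 in Fzd9 WT mice, with a median difference of 0.08. The 8 fibroblast genes averaged 3.50 to 4.38 in Fzd9 KO mice and 3.55 to 5.83 in Fzd9 WT mice, with a median difference of −0.35 and 8 of 8 below 0. WT mouse 2, the highest mouse for most of the set, was also the highest in the fibroblast, leukocyte and duct lists. The 10 leukocyte genes averaged 3.60 to 3.99 in Fzd9 KO mice and 3.73 to 4.20 in Fzd9 WT mice, and 5 of 7 duct genes measured averaged 3.65 to 3.96 in Fzd9 KO mice and 3.56 to 4.54 in Fzd9 WT mice. The part these cells had in the differences was not tested. Acinar genes, 13 of 16 measured, averaged 4.09 to 7.01 in Fzd9 KO mice and 4.10 to 6.00 in Fzd9 WT mice, highest in KO mouse 1 and WT mouse 3, and with their mean as a covariate the same 6 genes of the set passed. Endothelial genes averaged 5.17 to 6.71 in Fzd9 KO mice and 4.54 to 6.47 in Fzd9 WT mice, with a median difference of 0.37.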

How the data were processed

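Total RNA from the islets of 4 Fzd9 KO and 4 Fzd9 WT mice was hybridised to 1 single-colour Affymetrix array each. The deposited table holds log2 values that the authors made with RMA in Partek, per the labels (versions not given in the sources used here), and was used without further normalisation or filter. RMA equalises arrays, so changes shared by most genes cannot be seen. Of 41345 probe sets, 23521 carried 1 gene symbol, 1820 several and 16004 none; symbols were updated through Entrez numbers for 23328, and each of 22180 genes was read on its brightest probe set. KO and WT were compared with limma 3.58.1 (R 4.3.3) over all probe sets, with Benjamini-Hochberg adjustment. Mice are the replicates and 4 per group limits precision. In simulated data with independent noise, 85 of 100 probe sets lowered by 1 log2 unit passed the threshold and 12 passed adjustment. Of 41145 unchanged sets, 2088 passed the threshold and 4 passed adjustment. Smaller falls, such as those of most genes that passed here, were not simulated. In the arrays themselves, 658 of 41345 probe sets passed the threshold as lower and 786 as higher. Values were given in every mouse for genes past the threshold and, whatever their result, for the actins, Srf, its cofactors, smooth muscle and ERM genes. Cfl1 and Rnd3 were added after their values were seen. The set, its roles and all lists were chosen with earlier results of these data known. Normalisation, test, filter, probe set rule, weights, an acinar covariate, a replicate block and leaving out mice were varied. Promoter windows came from RefSeq (GRCm38.p6), as did gene positions. The separate values of the contractility control list are not reported here.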

Additional observations from a re-analysis of the deposited data

Results flagged for a closer look

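In 9 of 86 groups of 4 mice, 1 mouse lay far from the other 3 by Dixon's test, where about 1 in 20 groups, or 4.3 of 86, would be marked by chance. Among the genes that fell, KO mouse 2 read 3.09 for Actb against 2.76 to 2.81 in the other KO mice, and 6.62 for Actg1 against 6.53 to 6.54. In both genes that mouse still lay below every WT mouse. KO mouse 1 read 5.12 for Mrtfb against 5.93 to 6.10 in the other KO mice, and 5.20 for Vcl against 5.44 to 5.48. KO mouse 4 read 5.06 for Tpm4 against 5.56 to 5.58, and KO mouse 3 read 6.13 for Capza1 against 5.57 to 5.65. Among WT mice, WT mouse 2 read 5.30 for Myl9 against 4.62 to 4.70, WT mouse 4 read 4.42 for Flna against 5.59 to 5.70, and WT mouse 1 read 8.29 for Actr3 against 7.57 to 7.65. KO mouse 4 read 4.43 for Flna, close to the low WT mouse.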

How the results depend on the processing

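In the 11 settings that kept all mice, 6 genes of the set were lower in Fzd9 KO mice each time, the same 6, and 0 were higher in all 20 settings. Leaving out 1 mouse gave 3 to 8 lower genes and a median of −0.29 to −0.09, and leaving out KO mouse 1 and WT mouse 3 together gave 8 (Tagln2, Tpm3 and Wdr1 added, Mrtfa lost) and −0.29. The labels only number the mice, and the main comparison treated them as unpaired. Correlations of same-numbered deviations ran from −0.1 to 0.238, highest for mouse 4, and were not compared with those of other pairs. With the mouse number as a replicate block, 6 genes of the set and 1 pathway gene were lower. Pathway genes lower in KO numbered 1 with a variance trend, array weights, bright probe sets only, or without KO mouse 1 and WT mouse 3. They numbered 3 after quantile normalisation, 4 with the mean of probe sets, and 1 to 2 with 1 mouse left out. Pathway genes higher in KO numbered 1 after quantile normalisation, 2 by the methods' t-test, 1 without KO mouse 1 and WT mouse 3, and 0 to 1 with 1 mouse left out. Mrtfb turned positive after quantile normalisation (0.028), cyclic loess (0.044), array weights (0.095), the mean of probe sets (0.17), the acinar covariate (0.071) and without KO mouse 1 and WT mouse 3 (0.15), and ran from −0.12 to 0.20 with 1 mouse left out. Msn was 0.22 with the mean of probe sets and −0.35 to 0.20 with 1 mouse left out, Tagln −0.36 to 0.023, and Rnd3 −0.92 to 0.0033. None of these 4 genes passed in any setting, and the cause of the changes was not tested. Other scalings moved the median of all genes by at most −0.03. In the set, 8 genes, Actb and Ezr among them, averaged below the receptor gauge, where signal over background limits the measured size of a difference.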

Other observations

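Within the Fzd9 WT mice, the order of the mice from high to low was 2, 4, 3, 1 for Actb, for Srf and for the mean of the early SRF targets. Rhob ran 2, 4, 1, 3, Actg1 2, 3, 1, 4 and Mrtfa 2, 1, 3, 4, while Ezr ran 1, 3, 2, 4. These orders were noticed after the values were seen and no test was made of them.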
